A study of Mus musculus with 9 samples.

Results

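Malat1, Neat1, Kcnq1ot1, Meg3, Gas5 and Snhg11 are long non-coding RNA genes that were followed across 9 RNA sequencing libraries of mouse kidney. They were chosen by name and found through their Ensembl identifiers, and all 6 were present among the 55359 genes of the deposited count table. The first group, HFD-STZ+DH, came from mice fed a high-fat diet from 6 weeks of age, with 49.0% of calories from fat, injected on days 60 and 63 with 30 mg/kg of streptozotocin (STZ), which kills insulin-producing beta cells, and then dosed by mouth with dehydrozingerone, a curcumin-related phenolic compound of ginger, at 50 mg/kg for 2 weeks. The second group, HFD-STZ+Veh, had the same diet and streptozotocin with vehicle, and the third, NCD+Veh, had a normal calorie diet with 11.32% of calories from fat and vehicle, with no streptozotocin named for it. Each group has 3 libraries. The sources used here name no strain or sex, and the labels do not say that each library is a separate animal, so errors and tests below measure only the spread between these samples. The model combines a diet with a toxin, so their separate parts cannot be told apart in any comparison.

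Long non-coding RNAs are transcribed like messenger RNAs but are not translated into a known protein. Malat1 collects in nuclear speckles, the bodies that store splicing factors, and Neat1 is the scaffold of paraspeckles, which retain RNAs and RNA-binding proteins. Kcnq1ot1 and Meg3 are transcribed from imprinted clusters, where only 1 parental copy is active. Gas5 and Snhg11 host small nucleolar RNAs in their introns. Spliced Gas5 RNA is known to leave the nucleus and to be degraded during translation, so of the 6 it is the one that the term nuclear describes least well. GENCODE M21 lists Snhg11 as protein-coding, whereas RefSeq lists it as a long non-coding RNA.

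The ends of Malat1 and Neat1 are shown because both genes lie on chromosome 19, on the minus strand, and end in a way that differs from other polymerase II transcripts. Their mature 3′ ends are cut by RNase P just after a genomically encoded run of A-rich sequence, and upstream U-rich stretches fold back on it as a triple helix that protects the end. The libraries were made by capturing RNA on oligo beads that bind poly(A), per the labels' protocols. The stretches below are read from GENCODE M21 transcripts of build GRCm38, with T written for U, from base 6598 to 6701 of the 6983 bases of Malat1 and from base 20672 to 20771 of the 20771 bases of Neat1. Capitals mark 3 motifs read from these transcripts: the last 10 bases of Neat1, AAAAGCAAAA, their reverse complement TTTTGCTTTT upstream, and before that the longest pyrimidine stretch, from T to T, that both genes share, TTTCTTTTCCT.
Malat1: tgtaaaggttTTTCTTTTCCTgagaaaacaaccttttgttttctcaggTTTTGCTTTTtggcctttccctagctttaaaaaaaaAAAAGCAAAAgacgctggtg
Neat1: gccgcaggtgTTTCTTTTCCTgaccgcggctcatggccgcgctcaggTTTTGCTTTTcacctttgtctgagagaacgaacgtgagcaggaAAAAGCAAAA

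The 3 motifs followed each other in the same order in both genes. In Neat1 the A-rich motif closes the annotated transcript, with 0 bases after it, whereas the annotated Malat1 transcript runs on for 292 bases. The search used the transcribed strand. All 3 motifs in this order, with gaps of up to 60 bases, were found in 2 of 141767 GENCODE M21 transcripts (0.00141%), which are these 2, from which the motifs were taken. Each motif alone was held by more transcripts, at 0.502% for TTTCTTTTCCT, 1.08% for TTTTGCTTTT and 1.12% for AAAAGCAAAA.

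Gas5 is shown at its start, on chromosome 1, because it is the member that is spliced, exported and read by ribosomes. Transcripts of ribosomal proteins and several small nucleolar RNA hosts begin with a C followed by further pyrimidines, the 5′ terminal oligopyrimidine start that ties translation to growth signalling. The 70 bases at chr1:161035146-161035215 (GRCm38.p6, plus strand, RefSeq promoter table) hold 20 bases before the annotated start, and the capitals mark the first 5 transcribed bases.
Gas5: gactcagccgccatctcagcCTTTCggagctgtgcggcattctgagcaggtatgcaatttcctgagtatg
The letters CTTTC stood at the start of 45 of 32851 RefSeq promoters (0.137%), and a C with 4 further pyrimidines at 2.51%. Of the 7 starts that the table holds for 5 of the members, this one of the 2 Gas5 starts was the only one to begin with CTTTC, and Neat1 had none in the table.

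Total counts ran from 15.1 to 47.5 M (mega) per library, and all 10 kidney markers were detected in every library, with a summed level of 2071 to 3511 counts per M (CPM). Genes of the mitochondrial genome, whose symbols start with mt-, took 46.3%, 43.1% and 46.0% of counts in HFD-STZ+DH, 45.0%, 60.4% and 52.4% in HFD-STZ+Veh and 51.5%, 41.5% and 39.2% in NCD+Veh. Replicate 2 of HFD-STZ+Veh stood apart, with the highest mitochondrial share, the fewest counts on nuclear protein-coding genes (2.13 M) and a scaling factor of 0.327, against 0.715 to 1.63 in the other 8 libraries. Xist marked 2 of 3 HFD-STZ+DH, 1 of 3 HFD-STZ+Veh and 2 of 3 NCD+Veh libraries, so the sexes appear mixed within groups. Each library carries its own batch date and the dates follow the groups, so date and group cannot be told apart. Levels below are CPM scaled with TMM factors (trimmed mean of M values), which are set by the bulk of the genes. The factors largely fell as the mitochondrial share rose, from 1.63 in NCD+Veh replicate 3 at 39.2% to 0.327 in HFD-STZ+Veh replicate 2 at 60.4%.

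The 6 genes spanned a wide range of levels. Malat1 was the most abundant gene outside the mitochondrial genes and pseudogenes in 8 of the 9 libraries and the second in HFD-STZ+DH replicate 2. Per kb of annotated exon, Malat1 averaged 1693, 8084 and 3899 CPM in HFD-STZ+DH, HFD-STZ+Veh and NCD+Veh. In the same groups Neat1 came next at 14.03, 23.4 and 25.5 CPM per kb and Gas5 at 14.01, 12.1 and 11.0 CPM per kb. The 2 did not differ in order beyond their spread in HFD-STZ+DH, where Neat1 ran from 11.2 to 17.3 and Gas5 from 12.5 to 16.4 CPM per kb. Snhg11 averaged 2.83, 3.21 and 10.7 CPM per kb and Kcnq1ot1 1.31, 4.95 and 3.38 CPM per kb. In HFD-STZ+Veh their ranges overlapped, at 2.85 to 8.28 CPM per kb for Kcnq1ot1, with replicate 2 the highest, and 1.89 to 4.64 CPM per kb for Snhg11, so their order is not set there, and in the other groups Snhg11 was the higher. Meg3 was near the floor of detection at 0.0289, 0.0841 and 0.0795 CPM per kb. The exon length of Gas5, 3760 bases, includes retained introns, which lowers its value per kb, and Kcnq1ot1 is annotated as 1 unspliced exon of 93092 bases. Neat1 was divided by its full exon length of 20771 bases. Which of its 4 annotated transcripts poly(A) capture read cannot be told from counts per gene, so its place beside Gas5 depends on that length.

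**Figure D1:**
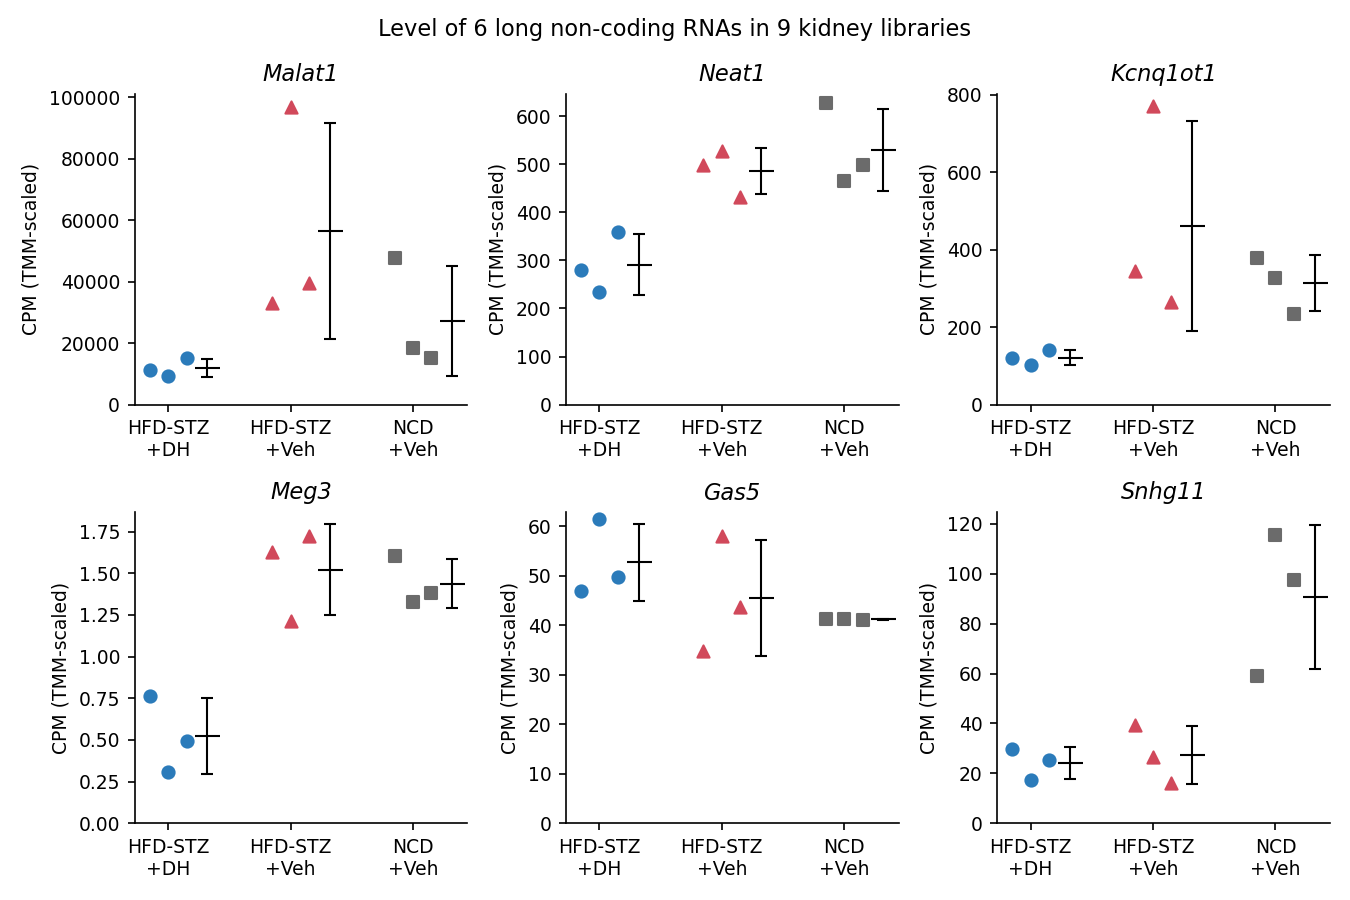
Level of each gene in every library, in TMM-scaled CPM on a linear axis that starts at 0, with HFD-STZ+DH as circles, HFD-STZ+Veh as triangles and NCD+Veh as squares, and the mean ± SD of 3 libraries in black. HFD-STZ+DH lies below both other groups for Malat1, Neat1, Kcnq1ot1 and Meg3, and Snhg11 is high in NCD+Veh alone.

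Malat1, the speckle RNA, was lowest after dehydrozingerone. It had 11116, 9298 and 15058 CPM in HFD-STZ+DH, 32992, 96806 and 39553 CPM in HFD-STZ+Veh and 47779, 18577 and 15327 CPM in NCD+Veh. All HFD-STZ+DH libraries lay below all others, NCD+Veh replicate 3 being close to the highest of them, and the other groups overlapped. The fitted level was 4.77-fold lower in HFD-STZ+DH than in HFD-STZ+Veh (log2 fold change -2.26, SE 0.64) and 2.30-fold lower than in NCD+Veh (-1.20, SE 0.62), and it was 2.07-fold higher in HFD-STZ+Veh than in NCD+Veh (1.05, SE 0.62). The first difference was -1.61 without HFD-STZ+Veh replicate 2 and -1.15 with library size alone. Malat1 and its relation to the mitochondrial share were known from these data when the genes were chosen, as were results of the comparisons, so the differences of all 6 genes are given as a description, with no p-value.

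As a share of all counts that were not mitochondrial, Malat1 took 2.56%, 2.23% and 3.48% in HFD-STZ+DH, 7.33%, 7.99% and 5.94% in HFD-STZ+Veh and 7.10%, 4.47% and 4.11% in NCD+Veh. This share uses no scaling factors, and here too HFD-STZ+DH lay below both other groups without overlap. The widest 95% Wilson score interval of these shares spanned 0.0355 percentage points, which covers counting error only. The averages were 2.76% ± 0.65 in HFD-STZ+DH, 7.08% ± 1.05 in HFD-STZ+Veh and 5.23% ± 1.63 in NCD+Veh (SD, n = 3 each). The remaining counts include unprocessed pseudogenes, which took 19.1% to 26.2% of all counts. With pseudogenes left out as well, Malat1 took 3.57% to 5.90% in HFD-STZ+DH, 12.2% to 24.2% in HFD-STZ+Veh and 6.15% to 15.1% in NCD+Veh, with averages of 4.64%, 16.2% and 9.37% in these groups, and HFD-STZ+DH again lay below the others. In bulk tissue, fewer cells of a type and less RNA per cell cannot be told apart.

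Neat1, the paraspeckle scaffold, followed with a smaller difference. It had 281, 234 and 360 CPM in HFD-STZ+DH, 498, 527 and 432 CPM in HFD-STZ+Veh and 627, 465 and 499 CPM in NCD+Veh. On this scale HFD-STZ+DH lay below every other library, and the groups without the compound overlapped. As percent of counts that are not mitochondrial, HFD-STZ+DH (0.0560% to 0.0833%) overlapped HFD-STZ+Veh (0.0435% to 0.111%). It still lay below NCD+Veh (0.0932% to 0.134%). Neat1 was 1.67-fold lower in HFD-STZ+DH than in HFD-STZ+Veh (log2 fold change -0.74, SE 0.28) and 1.82-fold lower than in NCD+Veh (-0.86, SE 0.28), and differed by -0.13 (SE 0.28) between HFD-STZ+Veh and NCD+Veh. Without TMM, with library size alone, its difference between HFD-STZ+DH and HFD-STZ+Veh was 0.03, and the median over all genes moved to 0.81.

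The 2 speckle and paraspeckle RNAs share a chromosome and an end structure but were not in a fixed proportion. The ratio of Malat1 to Neat1 counts, which no scaling of libraries can change, was 39.6, 39.8 and 41.8 in HFD-STZ+DH, 66.3, 184 and 91.5 in HFD-STZ+Veh and 76.2, 39.9 and 30.7 in NCD+Veh. It was nearly the same in the 3 HFD-STZ+DH libraries, higher in all HFD-STZ+Veh libraries, and spread across both in NCD+Veh.

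Kcnq1ot1, the antisense RNA that silences neighbouring genes on the paternal chromosome 7, was also lowest after dehydrozingerone. It had 119.7, 103 and 142 CPM in HFD-STZ+DH, 346, 770.4 and 265 CPM in HFD-STZ+Veh and 379.8, 328 and 235 CPM in NCD+Veh. The highest HFD-STZ+DH library lay below the lowest of the others, and HFD-STZ+Veh replicate 2 was again the highest of all. Kcnq1ot1 was 3.78-fold lower in HFD-STZ+DH than in HFD-STZ+Veh (log2 fold change -1.92, SE 0.39; -1.32 without that replicate and -0.89 with library size alone) and 2.58-fold lower than in NCD+Veh (-1.37, SE 0.38), and differed by 0.55 (SE 0.38) between HFD-STZ+Veh and NCD+Veh. It lies inside Kcnq1 on the opposite strand, and the sources used here do not give the strand setting of the counting. Kcnq1, the potassium channel gene, had 100 to 321 counts in HFD-STZ+DH, 16 to 86 in HFD-STZ+Veh and 36 to 168 in NCD+Veh, where Kcnq1ot1 had 4073 to 6703, 5712 to 6614 and 7103 to 9200 counts.

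Meg3, the maternally expressed RNA of the Dlk1-Dio3 cluster on chromosome 12, was read at few counts, 17 to 26 in HFD-STZ+DH, 9 to 43 in HFD-STZ+Veh and 30 to 54 in NCD+Veh. It had 0.764, 0.308 and 0.494 CPM in HFD-STZ+DH, 1.63, 1.21 and 1.73 CPM in HFD-STZ+Veh and 1.60, 1.33 and 1.38 CPM in NCD+Veh. On this scale the groups without the compound overlapped and HFD-STZ+DH lay below both. As percent of counts that are not mitochondrial, HFD-STZ+DH (7.40e-05% to 0.000176%) overlapped HFD-STZ+Veh (0.000100% to 0.000361%). It still lay below NCD+Veh (0.000238% to 0.000370%). Meg3 was 3.02-fold lower in HFD-STZ+DH than in HFD-STZ+Veh (log2 fold change -1.59, SE 0.39; -0.86 with library size alone) and 2.79-fold lower than in NCD+Veh (-1.48, SE 0.39), with 0.11 (SE 0.38) between HFD-STZ+Veh and NCD+Veh. The count of 9 in HFD-STZ+Veh replicate 2 has a 95% exact Poisson interval of 4.12 to 17.1, so single libraries place this gene only roughly.

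Gas5, the growth-arrest RNA that hosts several box C/D small nucleolar RNAs, varied least of the 6 on the TMM scale. It had 46.8, 61.5 and 49.8 CPM in HFD-STZ+DH, 34.9, 58.0 and 43.7 CPM in HFD-STZ+Veh and 41.3, 41.3 and 41.1 CPM in NCD+Veh. HFD-STZ+DH overlapped HFD-STZ+Veh and lay just above NCD+Veh. The log2 fold change was 0.21 (SE 0.23) in HFD-STZ+DH over HFD-STZ+Veh, 0.35 (SE 0.23) in HFD-STZ+DH over NCD+Veh and 0.14 (SE 0.23) in HFD-STZ+Veh over NCD+Veh. With library size alone the first of these was 1.14, and as percent of counts that are not mitochondrial Gas5 averaged 0.0123% in HFD-STZ+DH, 0.00636% in HFD-STZ+Veh and 0.00904% in NCD+Veh, so its small difference depended on the scale. The overlapping gene Zbtb37, on the opposite strand, had 11.6 to 13.0 CPM in HFD-STZ+DH, 16.2 to 25.0 CPM in HFD-STZ+Veh and 13.6 to 19.6 CPM in NCD+Veh.

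Snhg11, the other small nucleolar RNA host, had a pattern of its own. It had 29.9, 17.2 and 25.3 CPM in HFD-STZ+DH, 39.5, 26.4 and 16.1 CPM in HFD-STZ+Veh and 59.1, 116 and 97.6 CPM in NCD+Veh. On this scale every library on the high-fat diet with streptozotocin lay below every NCD+Veh library, with and without the compound. Per M of all counts without TMM, HFD-STZ+Veh replicate 1 (48.2) lay above NCD+Veh replicate 1 (42.6). As percent of counts that are not mitochondrial, these 2 libraries were level at 0.00878%. Snhg11 was 3.32-fold lower in HFD-STZ+Veh than in NCD+Veh (log2 fold change -1.73, SE 0.36) and 3.77-fold lower in HFD-STZ+DH than in NCD+Veh (-1.91, SE 0.36), and both values share the NCD+Veh libraries. Between HFD-STZ+DH and HFD-STZ+Veh it differed by -0.18 (SE 0.35).

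**Figure D2:**
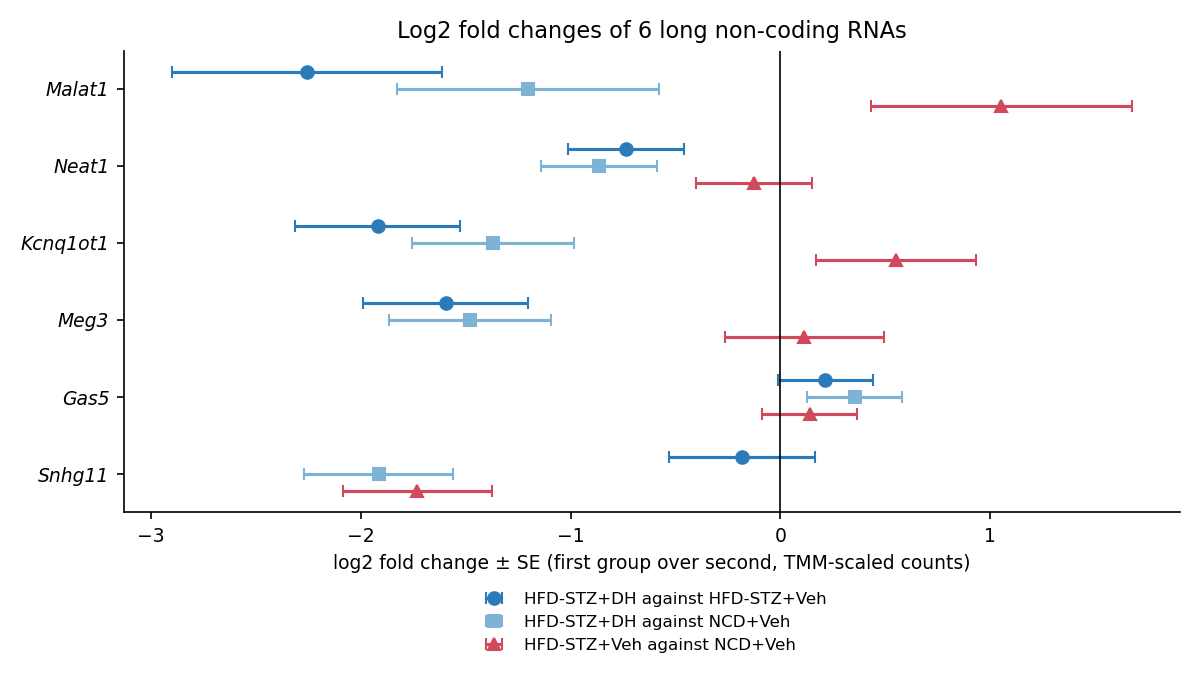
Log2 fold change ± SE of each gene in the 3 comparisons, from the fit over all 9 libraries, with values left of 0 lower in the first-named group. Malat1, Neat1, Kcnq1ot1 and Meg3 lie left of 0 in both comparisons of HFD-STZ+DH, Snhg11 lies left of 0 in both comparisons with NCD+Veh, and Gas5 lies near 0 in all 3.

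A gene was called when its p-value in edgeR's quasi-likelihood test, adjusted by Benjamini-Hochberg over the 17179 genes tested, was below 0.05. All 6 members passed the filter on low counts. In HFD-STZ+DH against HFD-STZ+Veh, 3 of the 6 were called, all lower (Malat1, Kcnq1ot1 and Meg3), and 4 did not overlap between the groups. Overlap here is judged on TMM-scaled CPM. Of all genes, 22.1% were called in this comparison, 12% lower and 10% higher, and 39.8% did not overlap. At an unadjusted p below 0.05 there were 4 members and 37.1% of all genes. In HFD-STZ+DH against NCD+Veh, 3 were called lower (Kcnq1ot1, Meg3 and Snhg11) and all 6 did not overlap, where 13.7% of all genes were called, 7.38% lower and 6.31% higher, and 44.1% did not overlap. At an unadjusted p below 0.05 there were again 4 members, and 31.7% of all genes. In HFD-STZ+Veh against NCD+Veh, 0 of the 6 were called by edgeR or limma-voom and 1, Snhg11, did not overlap, had an unadjusted p below 0.05 and was called by DESeq2. Of all genes, 0.0524% were called (0.0291% lower and 0.0233% higher), 7.43% had an unadjusted p below 0.05 and 11.4% did not overlap. The split of calls over all genes depended on the scaling: 45.5% of the calls in HFD-STZ+DH against HFD-STZ+Veh were higher, and 93.7% with library size alone, and in HFD-STZ+Veh against NCD+Veh 44.4% and 24.1%. Since earlier results of these contrasts were known when the genes were chosen, nothing is read from the counts of members. The median log2 fold change of the 6 was -1.17 in HFD-STZ+DH against HFD-STZ+Veh, beside 0.04 over all genes, -1.29 against NCD+Veh, beside 0.01, and 0.13 in HFD-STZ+Veh against NCD+Veh, beside -0.003.

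The members were set against the mitochondrial share of counts, library by library. Malat1 went with it most closely, with a Pearson r of 0.83 and a Spearman rho of 0.60 between log2 CPM and the share over 9 libraries. Without the 2 libraries farthest from the median share, HFD-STZ+Veh replicate 2 and NCD+Veh replicate 3, its r was 0.69, and for deviations from the group means it was 0.95. Within each group the library with the highest level of Malat1 was not always the one with the highest share, since HFD-STZ+DH replicate 3 led its group at 46.0% and replicate 1 had 46.3%. The points share their library, depth and scaling factor, and that factor is itself tied to the share. Apparent sex also went with both measures. Libraries with Y-linked RNA and almost no Xist were NCD+Veh replicate 1, HFD-STZ+Veh replicates 2 and 3 and HFD-STZ+DH replicate 3. Their shares were 51.5%, 60.4%, 52.4% and 46.0%, against 39.2% to 46.3% in the libraries marked by Xist. In each group they also had more Malat1 CPM than the Xist libraries, so sex and share cannot be told apart here. As percent of counts that are not mitochondrial, the r of Malat1 was 0.59.

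Kcnq1ot1 came second with an r of 0.60 and a rho of 0.43, and its r was 0.30 without the same 2 libraries. Neat1 had an r of 0.33, Gas5 0.34 and Meg3 0.25, and Snhg11 went the other way at -0.47, with rho of 0.22, 0.33, 0.18 and -0.52. Without those 2 libraries, r was 0.43 for Neat1, -0.21 for Gas5, 0.47 for Meg3 and -0.32 for Snhg11. As percent of counts that are not mitochondrial, r was -0.71 for Neat1, 0.04 for Kcnq1ot1, -0.36 for Meg3, -0.84 for Gas5 and -0.77 for Snhg11. On that scale Kcnq1ot1 had a rho of -0.15 and, without the 2 libraries, an r of -0.08. The direction of the relation for Neat1, Kcnq1ot1, Meg3 and Gas5 thus depended on the scale or the measure, and that of Malat1 and Snhg11 was the same on both scales. The counts that are not mitochondrial still include unprocessed pseudogenes. These took 19.1% of all counts in NCD+Veh replicate 3, with the lowest mitochondrial share, and 26.2% in HFD-STZ+Veh replicate 2, with the highest. The denominator of that scale is thus itself tied to the share, and r without pseudogenes was not computed.

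**Figure D3:**
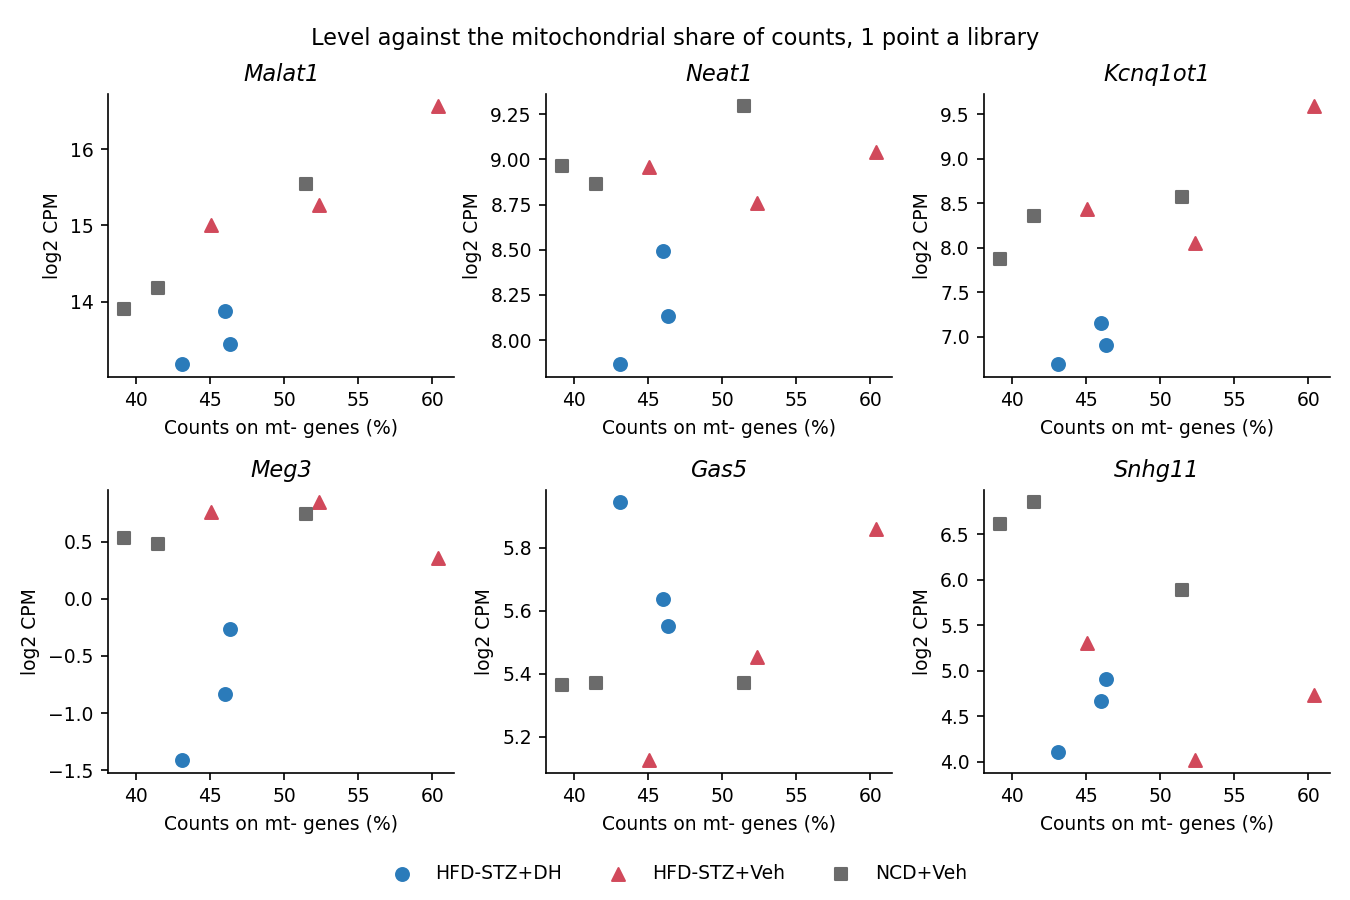
Log2 CPM (TMM-scaled) of each gene against the percent of a library's counts on mt- genes, with 1 point per library and groups by colour and shape. Malat1 climbs with the share in HFD-STZ+Veh and NCD+Veh, the HFD-STZ+DH points lie below those of both other groups for Malat1, Neat1, Kcnq1ot1 and Meg3, and the point at 60.4% is HFD-STZ+Veh replicate 2.

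In the fit over all genes, the level of Malat1 changed by 1.36 (log2, SE 0.26) for each 10 percentage points of mitochondrial share, Kcnq1ot1 by 0.78 (SE 0.30), Meg3 by 0.25 (SE 0.41), Neat1 by 0.20 (SE 0.23), Gas5 by 0.12 (SE 0.16) and Snhg11 by -0.84 (SE 0.39). Malat1 was the 1 member called, where 0.984% of all genes were. With library size alone the slope of Malat1 was 0.27 and was not called, and the members called were Neat1 (-0.89), Gas5 (-0.99) and Snhg11 (-1.92), all negative. Of all slopes called, 85.8% were positive, and 0.41% with library size alone, which moved the median slope of all genes to -1.15. The call of Malat1 was lost in 10 of 17 other settings, among them without HFD-STZ+Veh replicate 2 (slope 1.24) or 3 (1.37), without NCD+Veh replicate 1 (1.31), 2 (1.42) or 3 (1.48) and without HFD-STZ+DH replicate 2 (1.27). With group as a further term its slope was 1.16. When the share was added as a term beside group, the difference of Malat1 between HFD-STZ+Veh and NCD+Veh was 0.10, and that between HFD-STZ+DH and HFD-STZ+Veh was -1.26. Between HFD-STZ+DH and HFD-STZ+Veh, Kcnq1ot1 then differed by -1.34, Meg3 by -1.56 and Neat1 by -0.60. The share also went with apparent sex and the scaling factor, and its part in these differences was not tested.

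The levels of the members across the 9 libraries resembled each other in part. Malat1 and Kcnq1ot1 were most alike (r = 0.92), followed by Neat1 with Kcnq1ot1 and with Meg3 (r = 0.86 each) and Malat1 with Neat1 (r = 0.76). Gas5 ran against Meg3 (r = -0.73), Snhg11 (r = -0.58) and Neat1 (r = -0.56). These correlations share library and depth and carry no test. Among 10129 named genes above a floor on mean level (log2 CPM of 1), those most like Malat1 were Prpf4b, a kinase of splicing factors (r = 0.99), Birc6, a ubiquitin-conjugating enzyme (r = 0.99), and Ppp2r5e, a subunit of protein phosphatase 2A (r = 0.99). Kcnq1ot1 was most like Ankrd12 (r = 0.99), Zfp950 (r = 0.99) and the cohesin subunit Smc3 (r = 0.99), and Neat1 was most like the centrosomal genes Cep250 (r = 0.98) and Cep164 (r = 0.97) and Ylpm1 (r = 0.97). For Meg3 the nearest were Zfp579, Nrbp2 and the recombination gene Rad52 (r = 0.96 each), for Gas5 the chaperonin gene Cct6a (r = 0.95), Cfl2 and Rnf11 (r = 0.94 each), and for Snhg11 Sned1 (r = 0.93), Svil and the acetyl-CoA carboxylase gene Acacb (r = 0.92 each).

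RNAs for proteins of the body that Malat1 marks were lower in part as well. Of 30 tested genes for speckle and SR proteins, 9 were lower and 1 higher in HFD-STZ+DH than in HFD-STZ+Veh. Of all genes, 12% were called lower and 10% higher in this comparison. The median log2 fold change of the list was -0.59 beside 0.04 over all genes. Srsf11, an SR-related splicing factor, averaged 133 ± 24 CPM in HFD-STZ+DH and 630 ± 297 CPM in HFD-STZ+Veh (SD, n = 3 each; log2 fold change -2.24, edgeR adjusted p = 0.0070). Srrm1 (-1.67, edgeR adjusted p = 0.0066), Acin1 (-1.42, 0.0066) and Thoc2 (-1.64, 0.0069), which act in splicing and in export of RNA, fell too, while Srsf3, a small SR protein, rose (0.90, 0.0091). Without HFD-STZ+Veh replicate 2 the list had 8 lower and 2 higher, and with library size alone no gene of the list was called. Against NCD+Veh, 7 of the 30 were lower in HFD-STZ+DH and 1 higher, where 7.38% of all genes were lower and 6.31% higher.

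Among genes for protein partners of Neat1, calls were made in both directions. Of 20 tested paraspeckle genes, 4 were higher and 2 lower in HFD-STZ+DH than in HFD-STZ+Veh, with a median of 0.01, where 22.1% of all genes were called. Nono, a core paraspeckle protein, averaged 39.0 ± 4.9 CPM in HFD-STZ+DH and 19.1 ± 1.3 CPM in HFD-STZ+Veh (SD, n = 3 each; log2 fold change 1.03, edgeR adjusted p = 0.0075). Hnrnpk, an RNA-binding protein that favours the long form of Neat1, rose by 0.87 (edgeR adjusted p = 0.014) and Hnrnpa1 by 0.75 (0.026), and the chromatin remodeller Smarca4 fell by 1.39 (0.0069), as did Zc3h6 (-1.85, 0.046). Against NCD+Veh, 3 were higher and 1 lower, where 6.31% of all genes were higher and 7.38% lower.

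Of the listed genes in and around the imprinted domain of Kcnq1ot1, 9 were tested, and 2 were lower and 1 higher in HFD-STZ+DH than in HFD-STZ+Veh. Of all genes, 12% were called lower and 10% higher in this comparison. The median log2 fold change of the list was 0.29, beside 0.04 over all genes. Cdkn1c, the cell cycle inhibitor that Kcnq1ot1 is known to silence on the paternal copy, averaged 7.91 ± 0.91 CPM in HFD-STZ+DH and 17.1 ± 2.4 CPM in HFD-STZ+Veh (SD, n = 3 each; log2 fold change -1.11, edgeR adjusted p = 0.0050). The transporter gene Slc22a18 fell as well (-0.91, edgeR adjusted p = 0.026), and the lipid transfer gene Osbpl5 rose (0.84, 0.048). Around Meg3, 1 of 8 genes of the Dlk1-Dio3 cluster passed the filter on low counts. It was Ppp2r5c, a phosphatase subunit next to the cluster, which was higher in HFD-STZ+DH than in HFD-STZ+Veh (0.61, edgeR adjusted p = 0.032).

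In HFD-STZ+DH against HFD-STZ+Veh, 12% of all genes and 19.1% of all tested long non-coding genes were called lower. Among 14 other tested nuclear or chromatin-bound long non-coding RNAs, 5 were lower in HFD-STZ+DH than in HFD-STZ+Veh, with a median of 0.02. They were Jpx, an activator of Xist (log2 fold change -1.15, edgeR adjusted p = 0.0087), Hotairm1 of the Hoxa cluster (-0.98, 0.022), Dleu2 (-1.09, 0.046), the imprinted Airn (-1.11, 0.049) and Tsix, the antisense RNA of Xist (-1.77, 0.049). Tsix overlaps Xist, which differs between the sexes, and the sexes of the libraries are mixed as given above. Without HFD-STZ+Veh replicate 2, 2 genes of the list were lower. Of 14 other small nucleolar RNA hosts, the family of Gas5 and Snhg11, 1 was called, Snhg20, which was lower (-1.25, edgeR adjusted p = 0.021), with a median of -0.17 over the list.

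Genes that act on the stability of such RNAs were called in both directions. Of 18 tested genes of nonsense-mediated decay, the route that degrades spliced Gas5 RNA, 4 were lower and 1 higher in HFD-STZ+DH than in HFD-STZ+Veh. Upf3b, which links the decay machinery to exon junctions, averaged 47.5 ± 7.6 CPM in HFD-STZ+DH and 203 ± 95 CPM in HFD-STZ+Veh (SD, n = 3 each; log2 fold change -2.09, edgeR adjusted p = 0.0055). Smg6 (-1.64, edgeR adjusted p = 0.0091) and Upf2 (-1.50, 0.012) fell, and Eif4a3, the anchor of the exon junction complex, rose (0.63, 0.036). Of 20 tested genes of the nuclear exosome and of RNA end processing, 2 were lower, among them the exosome helicase Mtrex (-1.10, edgeR adjusted p = 0.035), and 1 was higher, the exosome subunit Exosc3 (0.67, 0.043). Both lists stand beside 22.1% of all genes called in this comparison.

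As a class, 1234 long non-coding genes were tested. In HFD-STZ+DH against HFD-STZ+Veh, 236 of them (19.1%) were lower and 29 (2.35%) higher, whereas of 13489 protein-coding genes 1205 (8.93%) were lower and 1548 (11.5%) higher. The median log2 fold change was -0.40 in the long non-coding class and 0.13 in the protein-coding class. Single-exon long non-coding genes, of which Kcnq1ot1 is one, were lower in 52 of 222 (23.4%) and spliced ones in 184 of 1012 (18.2%). Pseudogenes were close to the long non-coding class, with 274 of 1383 lower (19.8%). In HFD-STZ+DH against NCD+Veh, 161 long non-coding genes were lower and 12 higher. With library size alone the split turned, to 10 lower and 22 higher in HFD-STZ+DH against HFD-STZ+Veh, and without HFD-STZ+Veh replicate 2 it was 194 lower and 29 higher.

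**Figure D4:**
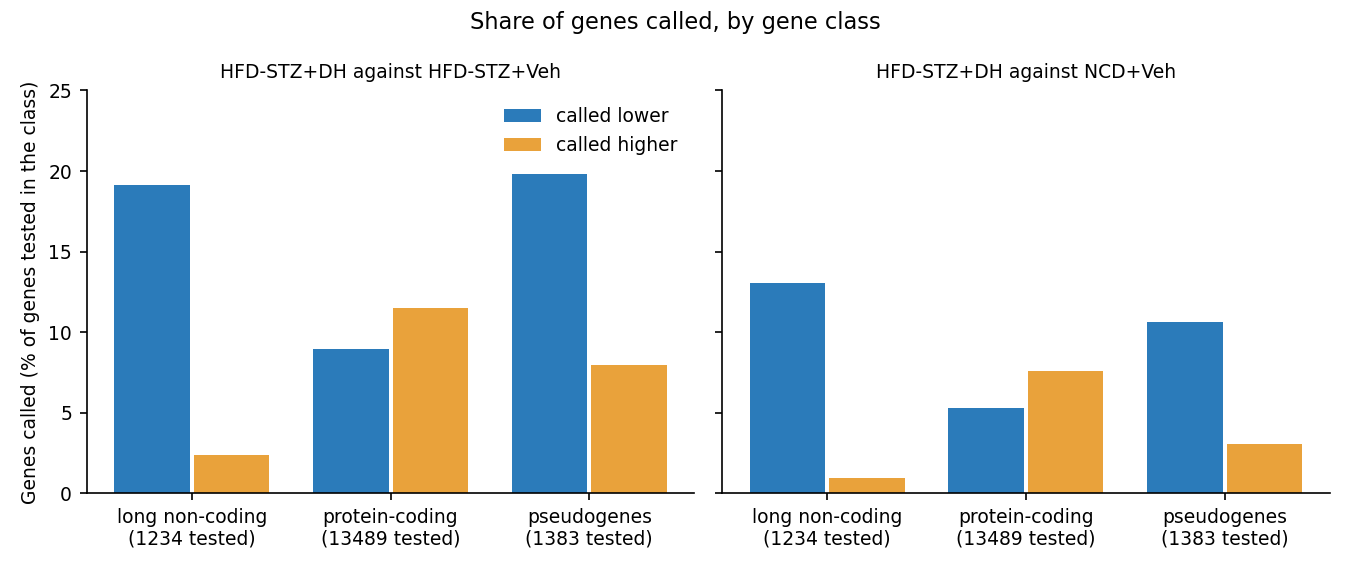
Percent of the tested genes of each class that were called lower (left bar) or higher (right bar) in HFD-STZ+DH than in HFD-STZ+Veh or NCD+Veh, from 0 on a linear axis. Long non-coding genes were lower in 19.1% and higher in 2.35% against HFD-STZ+Veh, while protein-coding genes were lower in 8.93% and higher in 11.5%; with library size alone the split of the long non-coding genes turned.

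Among named long non-coding genes with a mean log2 CPM over 1, which leaves out Tsix and Meg3, those with the largest falls in HFD-STZ+DH against HFD-STZ+Veh after Malat1 and Kcnq1ot1 were Foxd2os, at 1.45 ± 0.27 CPM in HFD-STZ+DH and 5.28 ± 0.70 CPM in HFD-STZ+Veh (SD, n = 3 each; log2 fold change -1.85, edgeR adjusted p = 0.0031), Selenok-ps1 (-1.83, 0.0096) and Hoxb3os, the antisense RNA of a Hox gene expressed in kidney (-1.55, 0.0083). Eprn was the 1 named long non-coding gene of the rule that rose, at 8.65 ± 1.20 CPM in HFD-STZ+DH and 3.48 ± 0.32 CPM in HFD-STZ+Veh (SD, n = 3 each; 1.32, edgeR adjusted p = 0.010). Eprn, Foxd2os, Selenok-ps1 and Hoxb3os were called in the same directions against NCD+Veh, a comparison that shares the HFD-STZ+DH libraries.

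Some markers of other cells differed between HFD-STZ+DH and HFD-STZ+Veh, while the summed levels of adipocyte, fibroblast, leukocyte and endothelial markers overlapped between them, and the part of such cells in the levels of the 6 RNAs was not tested. The 7 adipocyte markers summed to 2.59 to 68.1 CPM in HFD-STZ+DH, 1.73 to 6.50 CPM in HFD-STZ+Veh and 9.85 to 74.8 CPM in NCD+Veh. Of the 6 tested, Cidec, a lipid droplet gene, was higher in HFD-STZ+DH than in HFD-STZ+Veh (4.57, edgeR adjusted p = 0.047), and Lep was at 0 in 1 of 3 HFD-STZ+DH, 3 of 3 HFD-STZ+Veh and 2 of 3 NCD+Veh libraries. The 9 fibroblast and pericyte markers, of which Pdgfrb (1.13) and Col3a1 (1.80) were called higher, summed to 95.002 to 161 CPM in HFD-STZ+DH, 66.6 to 98.97 CPM in HFD-STZ+Veh and 123 to 133 CPM in NCD+Veh. The 8 leukocyte markers summed to 36.9 to 48.5 CPM in HFD-STZ+DH, 24.1 to 53.0 CPM in HFD-STZ+Veh and 33.4 to 50.7 CPM in NCD+Veh, and of 7 tested, Ptprc and C1qa were called higher and Csf1r lower in HFD-STZ+DH than in HFD-STZ+Veh. The 10 endothelial markers summed to 88.3 to 126 CPM in HFD-STZ+DH, 78.2 to 161 CPM in HFD-STZ+Veh and 132 to 169 CPM in NCD+Veh. Median log2 fold changes of the tested markers in HFD-STZ+DH against HFD-STZ+Veh were 3.24 for adipocytes and 0.44 for fibroblasts and pericytes. They were 0.91 for leukocytes and 0.31 for endothelial cells, beside 0.04 over all genes. The 10 nerve and neuroendocrine markers, looked at because Meg3 and Snhg11 are abundant in such cells, stayed at or below 1.07 CPM in sum, and Chga, Th and Pnmt were at 0 in every library. The 8 adrenal cortex markers stayed at or below 2.03 CPM in sum, and Cyp11b2 and Cyp21a1 were at 0 in every library.

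**Figure D5:**
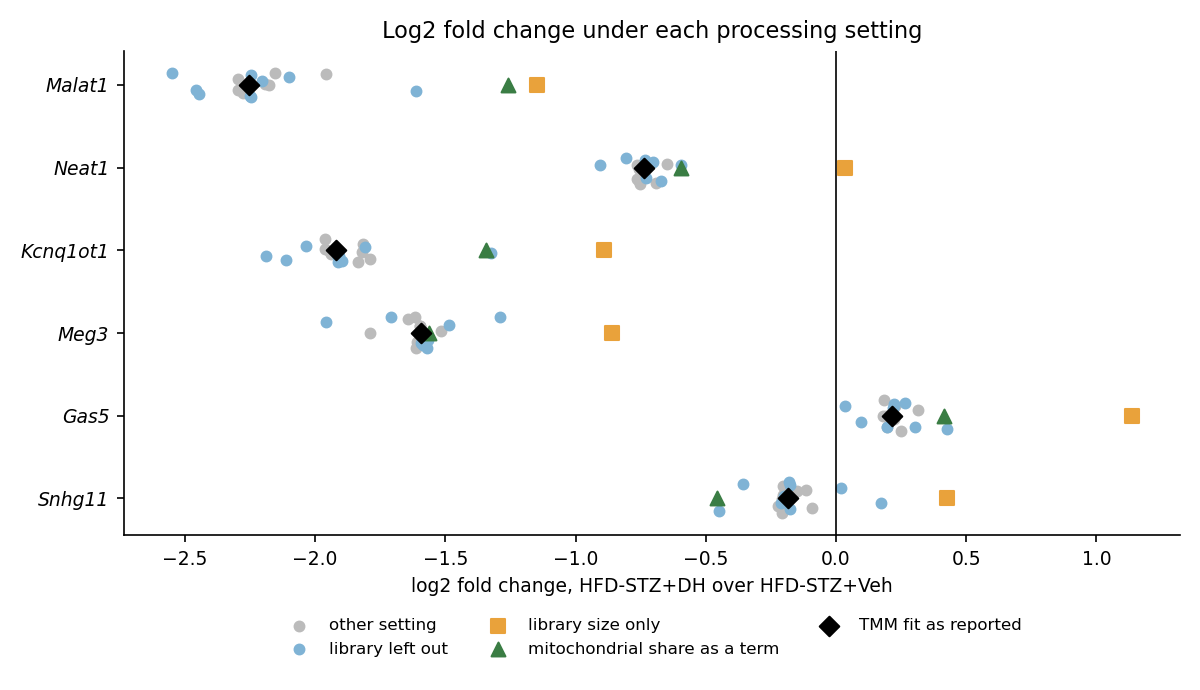
Log2 fold change of each gene in HFD-STZ+DH over HFD-STZ+Veh under the reported fit (diamond), with library size alone (square), with the mitochondrial share as a term (triangle), with 1 library left out (blue) and under the other settings (grey). Malat1, Kcnq1ot1 and Meg3 stay left of 0 in all 20 fits and Gas5 right of it, while Neat1 crosses to 0.03 with library size alone and Snhg11 lies on both sides.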

How the data were processed

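The authors deposited a table of raw counts per gene as whole numbers, per the labels, with 0 other columns of per-sample values. Poly(A) RNA was captured and stranded libraries were made, per the labels' protocols. The tools named are STAR, Trim Galore and FastQC and the build is GRCm39 (mm39), per the submitters' processing notes. The sources used here do not give versions, the counting program or its strand and multiple-mapping settings, and reads shared by overlapping or near-identical genes cannot be separated.

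Sample titles gave the groups, because the treatment label reads the same in all 9 libraries. Symbols were matched by Ensembl identifier for 94.1% of genes, with GENCODE M21 and RefSeq GRCm38.p6, another build than that of the counts, so gene coordinates are not printed except for the Gas5 start.

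Counts were tested in R 4.3.3 with edgeR 4.0.16, robust quasi-likelihood, TMM scaling, 1 fit over all 9 libraries with group as the only term and 6 residual degrees of freedom, after filterByExpr left 17179 genes. The slope on the mitochondrial share was fitted in the same way without group. Log2 CPM used a prior count of 2. SE was derived from the F statistic. Tests were two-sided. The scripts were tested on simulated data. DESeq2 1.42.0 and limma 3.58.1 served as alternatives.

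The members, gene lists, tests and alternatives were chosen with earlier results of these data known, and each count of a list is a description. Genes are named as follows: all members, up to 4 genes with the lowest p of each list and comparison, the 3 genes most like each member, and up to 5 named long non-coding genes with the largest called change each way. The lists were written from textbook knowledge. A further marker result is not reported here.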

Additional observations from a re-analysis of the deposited data

How the results depend on the processing

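The group comparisons were refitted under 19 other settings and the slope under 17. The number of genes called was 3796 in HFD-STZ+DH against HFD-STZ+Veh, and was 888 with library size alone, 2159 with the replicate block, 1863 with the mitochondrial share as a term and 1149 to 4086 with 1 library left out. Against NCD+Veh it was 2352, and was 36, 772 and 3791 under the same 3 settings, 3981 with only the groups compared and 112 to 3706 with 1 library left out. In HFD-STZ+Veh against NCD+Veh it was 9, and was 29 with library size alone, 425 with no filter, 2 with the replicate block, 4 with the mitochondrial share, 37 with the Y-linked level as a term, 3 with only the groups compared, 125 by DESeq2, 2 by limma-voom and 2 to 28 with 1 library left out. The slope was called for 169 genes, and for 13893 with library size alone, 97 without mitochondrial genes and pseudogenes, 279 with no filter, 1165 by DESeq2 and 1 to 235 with 1 library left out.

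Of the 6 members, 3 were called in HFD-STZ+DH against HFD-STZ+Veh, 1 with library size alone and 1 to 3 with 1 library left out. Malat1 was not called with the replicate block or without HFD-STZ+Veh replicate 2 or any of the HFD-STZ+DH libraries, Meg3 not without HFD-STZ+DH replicate 2, and Neat1 was called by DESeq2 and limma-voom. Against NCD+Veh 3 were called, 0 with library size alone, 1 with the replicate block, 5 with the mitochondrial share as a term and 0 to 4 with 1 library left out. In HFD-STZ+Veh against NCD+Veh 0 were called, and 1 (Snhg11) with library size alone, with no filter and by DESeq2, and 0 with 1 library left out. For the slope 1 (Malat1) was called, 3 others with library size alone (Neat1, Gas5 and Snhg11, all negative), 0 without mitochondrial genes and pseudogenes, with the replicate block and by DESeq2, and 0 to 1 with 1 library left out.

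The estimates that turned were these. With library size alone, which moved the median of all genes by 0.81 in HFD-STZ+DH against HFD-STZ+Veh, -0.74 in HFD-STZ+Veh against NCD+Veh and -1.15 in the slope, the first comparison gave Neat1 0.033, Snhg11 0.43 and Zc3h18 0.056, the second Kcnq1ot1 -0.37, Meg3 -0.56 and Gas5 -0.74, and the slope Neat1 -0.89, Kcnq1ot1 -0.31, Meg3 -0.80, Gas5 -0.99 and Pnn -0.27. Snhg11 in HFD-STZ+DH against HFD-STZ+Veh was 0.17 without HFD-STZ+Veh replicate 1 and 0.020 without HFD-STZ+DH replicate 2. In HFD-STZ+Veh against NCD+Veh, Kcnq1ot1 was -0.091 and Gas5 -0.088 with the mitochondrial share as a term, and -0.038 and -0.066 without HFD-STZ+Veh replicate 2, and Neat1 was 0.0076 without NCD+Veh replicate 1. The slope of Gas5 was -0.053 without HFD-STZ+Veh replicate 2. With 1 library left out these 4 ranged from -0.45 to 0.17 (Snhg11), -0.038 to 0.82 (Kcnq1ot1), -0.066 to 0.32 (Gas5) and -0.053 to 0.20 (slope of Gas5). The correlations with the mitochondrial share turned to -0.71 for Neat1, -0.36 for Meg3 and -0.84 for Gas5 as percent of counts that are not mitochondrial, and to -0.21 for Gas5 without the 2 farthest libraries. The cause was not tested. Same-numbered libraries deviated from their group means, of 3 libraries each, with r of -0.41 to 0.22. These values cannot exclude a pairing by replicate number, but the labels name none, so the replicate block is given here only. Depth limits Meg3, read at 9 to 54 counts, most of all.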
